A study of Mus musculus with 44 samples.

Results

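The *Myc* family loci are *Myc*, its neighbour *Pvt1*, *Mycn* and *Mycl*, each taken with 100 kb on either side in mm10 (GRCm38). Their members are the CTCF peaks whose summit lay in a gene body or within that distance, each peak assigned once to the nearest gene body. There were 26 such peaks of 59698 in the *Setdb1* KO list and 20 of 44241 in the WT list.

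CTCF was mapped by ChIP-seq in mouse embryonic stem cells (ESCs) of the TT2 line, which derives from a C57BL/6/CBA F1 cross. In the *Setdb1* KO cells a conditional deletion of *Setdb1* was induced by 800 nM 4-OHT, given for 4 days, and the cells were collected on day 6. The WT cells are a single clone, and the authors name no separate parent line for the *Setdb1* KO cells. They describe 4-OHT only as the inducer of the deletion, and do not state in so many words that the WT cells were left without it. Both were crosslinked with formaldehyde and immunoprecipitated with the same CTCF antibody from Active Motif. With 1 library per condition analysed, no replicate error and no p-value between conditions can be given, and genotype and library cannot be told apart. The lists hold no expression values, so the labelled cell type could not be checked against marker genes.

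SETDB1 is a methyltransferase that places H3K9me3, a mark of heterochromatin. CTCF is a zinc finger protein that binds insulators and halts cohesin at the anchors of chromatin loops, in an orientation set by the direction of its motif. MYC, MYCN and MYCL are related transcription factors that pair with MAX on E-box sequences and drive growth and proliferation, and MYC and MYCN help ESCs to maintain self-renewal. *Pvt1* encodes a long non-coding RNA next to *Myc*, and in human tumours *PVT1* is often amplified together with *MYC*.

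The sequences at the CTCF motifs near the gene starts are shown first, since these sites are described singly below. Capitals mark the 14 bp core of the best match to a CTCF matrix, and each line runs 5′ to 3′ on the strand named, in GRCm38. The site upstream of *Mycn* had no match above the threshold and is given around its summit with no capitals.
*Myc* −1.97 kb, shared, chr15:61983411-61983464, + strand: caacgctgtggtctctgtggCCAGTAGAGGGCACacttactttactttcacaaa
*Myc* −10.1 kb, shared, chr15:61975185-61975238, + strand: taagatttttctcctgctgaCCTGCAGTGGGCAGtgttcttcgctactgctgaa
*Mycn* intron, shared, chr12:12939123-12939176, - strand: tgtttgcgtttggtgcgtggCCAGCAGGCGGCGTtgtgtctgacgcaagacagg
*Mycn* promoter, KO-only, chr12:12942539-12942599, + strand: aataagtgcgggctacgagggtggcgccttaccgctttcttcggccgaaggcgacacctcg
*Mycn* +13 kb, KO-only, chr12:12928838-12928891, + strand: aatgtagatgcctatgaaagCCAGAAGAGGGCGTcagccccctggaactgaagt
*Mycl* promoter, shared, chr4:122995461-122995514, + strand: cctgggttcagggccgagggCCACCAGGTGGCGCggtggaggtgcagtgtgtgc

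At *Mycl* the distal sites are shown as a second set. The sites with the highest *Setdb1* KO pileups that held a motif come first, and after them the 5 sites whose core is followed within 10 bp by the letters GATC, which were chosen after their sequences had been seen.
*Mycl* −51.1 kb, shared, chr4:122944552-122944605, + strand: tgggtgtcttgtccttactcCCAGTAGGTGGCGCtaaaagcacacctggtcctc
*Mycl* +87.4 kb, shared, chr4:123083043-123083096, - strand: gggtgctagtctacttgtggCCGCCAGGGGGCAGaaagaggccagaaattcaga
*Mycl* −87.6 kb, shared, chr4:122908057-122908110, - strand: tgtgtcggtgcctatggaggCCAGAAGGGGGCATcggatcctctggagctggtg
*Mycl* −84.9 kb, shared, chr4:122910725-122910778, + strand: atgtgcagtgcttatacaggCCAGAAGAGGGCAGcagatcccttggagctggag
*Mycl* −82.9 kb, shared, chr4:122912793-122912846, + strand: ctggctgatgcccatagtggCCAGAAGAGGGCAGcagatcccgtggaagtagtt
*Mycl* −79.7 kb, shared, chr4:122915935-122915988, + strand: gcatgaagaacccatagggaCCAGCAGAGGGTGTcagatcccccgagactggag
*Mycl* +90.9 kb, shared, chr4:123086562-123086615, + strand: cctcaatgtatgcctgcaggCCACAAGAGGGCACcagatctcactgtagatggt

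The *Setdb1* KO library had 27.6 M tags, with 28.5 M in its input, and the WT library 27.4 M, with 30.9 M in its input. These depths were solved from the peak lists. A pileup, as used here, is the number of extended fragments over the summit, and the background is the number the authors' peak caller expected there from the input. Over the 42395 shared sites of the genome with a solved pair of pileups, the median *Setdb1* KO to WT pileup ratio was 1.36 (quartiles 1.17 and 1.61), so that ratios at the members are given against 1 and against this median. All intervals are at 95% and cover counting error only.

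Of the 26 *Setdb1* KO peaks at the *Myc* family loci, 20 shared 1 bp or more with a WT peak (shared) and 6 did not (KO-only). The KO-only share was 23.1% (Wilson interval 11.0 to 42.1), and over the whole *Setdb1* KO list it was 28.8%, within that interval. With both lists held to the same length by −log10 q, 2 of 21 were KO-only (9.52%, 2.65 to 28.9), against 11.7% of all peaks under that setting. None of the 20 WT peaks lacked a *Setdb1* KO partner (0%, Wilson interval 0 to 16.1), against a WT-only share of 3.22% over all WT peaks. The lists differed at these loci by the 6 KO-only peaks, 2 each at *Pvt1*, *Mycn* and *Mycl*. By place, 2 of the 26 sites were promoter-proximal, with the summit within 1 kb of an annotated transcription start of a member. The other 24 were distal to the members. The share of all CTCF peaks near transcription starts was not computed, so that few or many cannot be judged.

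**Figure D1:**
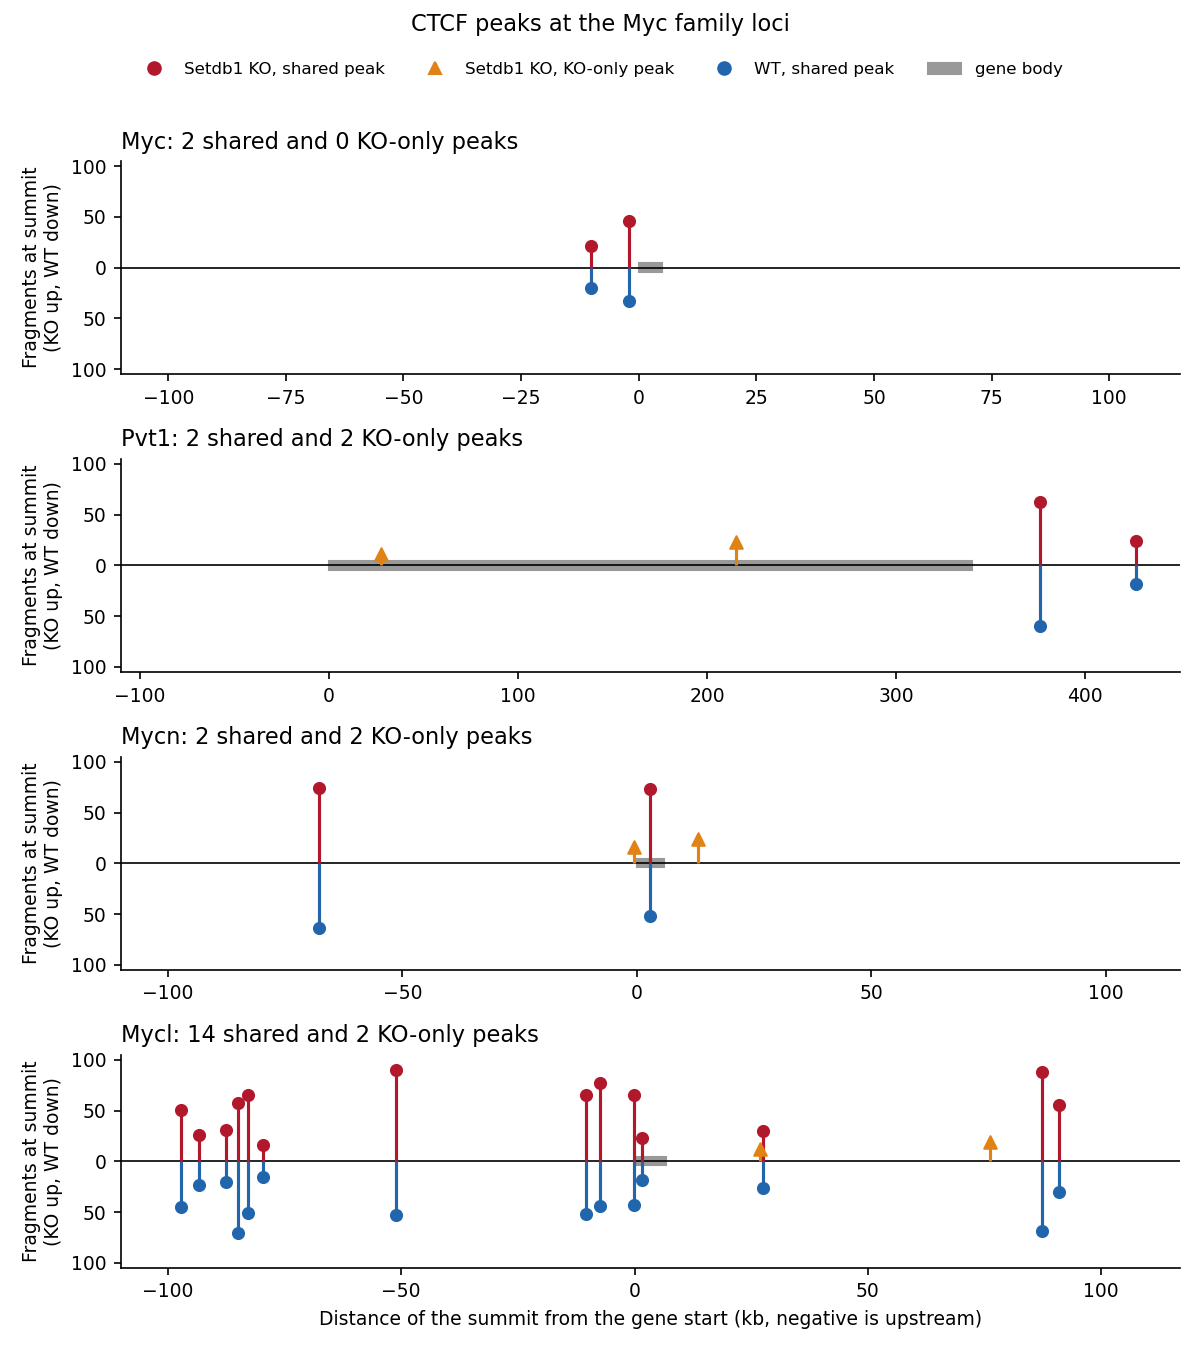
CTCF peaks at *Myc*, *Pvt1*, *Mycn* and *Mycl*, placed by the distance of the summit from the gene start (kb) with pileup (fragments over the summit) drawn upwards for *Setdb1* KO and downwards for WT. Red and blue points are shared peaks, orange triangles the 6 KO-only peaks and grey bars the gene bodies. *Mycl* has 16 *Setdb1* KO peaks and *Myc* 2.

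*Myc* (ENSMUSG00000022346.15, chr15:61985391-61990374, + strand) had 2 CTCF sites, both shared, both upstream of the gene and neither within 1 kb of a *Myc* start. The nearer summit, at chr15:61983426, lay 1.97 kb upstream of the gene start and 124 bp from the start of *Gm37947*, a gene model on the opposite strand that is still without experimental evidence in the annotation. Its pileup was 46 in *Setdb1* KO against 33 in WT, with fold enrichments over background of 9.66 in *Setdb1* KO and 8.58 in WT. The ratio of 1.39 had an interval of 0.872 to 2.25, which holds both 1 and the genome median. Its motif score of 22.62 (log2 odds) was the highest at any of the 26 sites, although its pileup in *Setdb1* KO was exceeded at 12 other member sites. The core ran in the direction of *Myc* transcription.

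The second *Myc* site, at chr15:61975242 and 10.1 kb upstream, had a pileup of 21 in *Setdb1* KO against 20 in WT, a ratio of 1.05 (0.542 to 2.04), and an identical fold enrichment of 6.32 in both. The summed pileup at *Myc* was 67 in *Setdb1* KO against 53 in WT. That ratio, 1.26 (0.869 to 1.85), was not distinguishable from 1 at this depth. No site was listed in the *Myc* gene body in either condition. Beyond the site at −1.97 kb the next listed summit in *Setdb1* KO was a KO-only peak in *Pvt1*, 82.1 kb away, which lies within 100 kb of *Myc* but is nearer to *Pvt1*.

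*Pvt1* (ENSMUSG00000097039.8, chr15:62037986-62378096, + strand in GENCODE, 340 kb long) had 4 *Setdb1* KO peaks and 2 WT peaks. Both peaks inside the gene body, each in an intron, were KO-only, and both peaks beyond the 3′ end were shared. The KO-only peak at chr15:62065492, 27.5 kb into the gene, had a pileup of 11 in *Setdb1* KO, a fold enrichment of 3.50 and a −log10 q of 2.89. It was the weakest of the 26 peaks. The KO-only peak at chr15:62252622, 215 kb into the gene, was stronger, with a pileup of 23, a fold enrichment of 6.16 and a −log10 q of 11.5. Of the bases within 50 bp of the summit, 100% at the weaker and 74.3% at the stronger peak were masked as repeats in the reference genome, and neither held a CTCF motif above the threshold within that distance. Within 100 bp of the weaker one a match with a score of 14.58 passed the threshold of that wider window.

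No CTCF peak was listed within 1 kb of an annotated *Pvt1* start in either condition. Gaps between neighbouring *Setdb1* KO summits along *Pvt1* were long, 187 kb between the intronic peaks and 161 kb from the second of them to the first shared site past the gene. That shared site, at chr15:62413908 and 35.8 kb beyond the annotated end, had a pileup of 63 in *Setdb1* KO against 60 in WT, a ratio of 1.05 (0.725 to 1.52). Its background was 4.83 in *Setdb1* KO against 2.65 in WT, so that fold enrichment ran the other way, 11.0 in *Setdb1* KO against 16.7 in WT. The last site, at chr15:62465211, had a pileup of 24 in *Setdb1* KO against 18 in WT (1.33, 0.694 to 2.61). Summed over both shared sites the pileup was 87 in *Setdb1* KO against 78 in WT, a ratio of 1.12 (0.812 to 1.53), while the ratio of summed fold enrichments was 0.766. RefSeq ends *Pvt1* at 62260215, after which neither shared site lies within 100 kb of the gene.

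*Mycn* (ENSMUSG00000037169.15, chr12:12936093-12941914, - strand), which is amplified in many human neuroblastomas, also had 4 *Setdb1* KO peaks and 2 WT peaks. A KO-only peak stood at its promoter, with the summit at chr12:12942569, 655 bp upstream of the gene start. Its pileup was 16 in *Setdb1* KO, with a background of 2.19, a fold enrichment of 5.33 and a −log10 q of 7.35. The bases within 50 bp of this summit held 10 CpG and were 21.8% masked, and the best motif score was −3.90, under the threshold of 6.15. This was the only KO-only peak among the 2 promoter-proximal sites of the family.

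The other KO-only peak at *Mycn*, at chr12:12928884, lay 7.21 kb beyond the 3′ end of the gene. It was the strongest KO-only peak at the loci, with a pileup of 24 in *Setdb1* KO, a fold enrichment of 6.41 and a −log10 q of 12.4. It was also the 1 KO-only peak of 6 with a CTCF motif, which scored 8.28 and lay with all 14 core bases in masked sequence. With the search widened to 100 bp and its threshold of 8.72 this motif was not called, and the weaker peak in *Pvt1* was the 1 called instead. Within *Mycn* itself a shared site in an intron, at chr12:12939150, had a pileup of 73 in *Setdb1* KO against 52 in WT, a ratio of 1.40 (0.970 to 2.04), with fold enrichments of 20.5 in *Setdb1* KO and 14.5 in WT. A shared site 67.7 kb upstream, at chr12:13009632, had a pileup of 74 in *Setdb1* KO against 64 in WT (1.16, 0.816 to 1.64). Both were among the higher pileups of the family, at the 77.6th and 78.3rd percentile of all *Setdb1* KO peaks. Summed, they gave 147 in *Setdb1* KO against 116 in WT, a ratio of 1.27 with an interval of 0.987 to 1.63.

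*Mycl* (ENSMUSG00000028654.13, chr4:122995652-123002485, + strand), the family member known from human small cell lung cancer, had the most CTCF peaks per 100 kb of the 4 genes. Its window held 16 *Setdb1* KO peaks and 14 WT peaks, of which 2 were KO-only and none WT-only. This is 7.74 *Setdb1* KO peaks per 100 kb, at the 85.8th percentile of 21951 protein-coding genes measured in the same way, against a median of 3.86. In their own windows *Mycn* had 1.94 per 100 kb (24.9th percentile), *Myc* 1.46 (19.4th percentile) and *Pvt1* 1.11 (15.3rd percentile). Of the 16 *Mycl* sites, 10 lay upstream of the gene start and 6 downstream.

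The *Mycl* promoter carried a shared site, at chr4:122995495 and 157 bp upstream of the gene start. Its pileup was 65 in *Setdb1* KO against 43 in WT, a ratio of 1.51 (1.01 to 2.28). The background there was 6.76 in *Setdb1* KO, the highest of that library at any member site, and 3.54 in WT, so that fold enrichment was 8.50 in *Setdb1* KO against 9.69 in WT. The motif, at a score of 19.74, was the second highest of the family and pointed along *Mycl*. Another shared site lay in the gene, in an intron at chr4:122997232, with a pileup of 23 in *Setdb1* KO against 18 in WT (1.28, 0.660 to 2.51) and summits 141 bp apart. At the other 19 shared sites of the family the summits were less than 60 bp apart.

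Upstream of *Mycl* the site at −51.1 kb (chr4:122944587), in the interval beyond the 3′ end of *Mfsd2a*, which encodes a lipid transporter, had the highest pileup of the family in *Setdb1* KO. Its pileup was 90 in *Setdb1* KO against 53 in WT, a ratio of 1.70 (1.2 to 2.43). The background was 5.80 in *Setdb1* KO against 2.80 in WT, so that fold enrichment was 13.4 in *Setdb1* KO against 14.2 in WT. The site at −7.48 kb (chr4:122988170) had a pileup of 77 in *Setdb1* KO against 44 in WT, a ratio of 1.75 (1.19 to 2.60), with fold enrichments of 24.1 in *Setdb1* KO and 12.3 in WT. All bases within 50 bp of its summit were masked, and it had no motif above the threshold. No further peak was listed between this site and the promoter. Downstream, the site at +90.9 kb (chr4:123086565) had the highest ratio of the family, 1.83 (1.15 to 2.96), from a pileup of 55 in *Setdb1* KO against 30 in WT. Its neighbour at +87.4 kb (chr4:123083064) had a pileup of 88 in *Setdb1* KO against 69 in WT, a ratio of 1.28 (0.920 to 1.77).

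A group of 6 shared sites lay within 17.5 kb at the far upstream end of the *Mycl* window, on the side of *Cap1*, which encodes a regulator of actin. It included the one site of the family with a lower pileup in *Setdb1* KO than in WT, at −84.9 kb (chr4:122910749). There the pileup was 57 in *Setdb1* KO against 71 in WT, a ratio of 0.803 (0.556 to 1.15). Fold enrichment was 9.95 in *Setdb1* KO, over a background of 4.83, and 21.6 in WT, over a background of 2.34. Its interval holds 1 but lies below the genome median of 1.36, as did those of 2.30% of all shared sites. The other 5 sites of the group had pileups of 16 to 65 in *Setdb1* KO and 15 to 51 in WT, with ratios of 1.07 to 1.55.

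Both KO-only peaks at *Mycl* were downstream of the gene. That at chr4:123022469 lay in an intron of *Trit1*, which encodes a tRNA-modifying enzyme, 0.683 kb from a shared site in the same intron. It was among the weakest, with a pileup of 12 in *Setdb1* KO and a fold enrichment of 3.64, and all bases within 50 bp of its summit were masked. The shared site beside it, at chr4:123023152, had a pileup of 30 in *Setdb1* KO against 26 in WT, and a fold enrichment of 6.37 in *Setdb1* KO against 8.34 in WT. The other KO-only peak, intergenic at chr4:123071825, had a pileup of 19, a fold enrichment of 6.27 and a −log10 q of 10.1.

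Over all 20 shared sites, the summed pileup was 1040 in *Setdb1* KO against 807 in WT, a ratio of 1.29 (1.17 to 1.41). The shared sites had pileups of 16 to 90 in *Setdb1* KO (median 56.0) and of 15 to 71 in WT (median 43.5). Single ratios ran from 0.803 to 1.83 with a median of 1.27, and 19 of 20 were above 1. The remaining site, or 1 of 20, was below 1, as were 7.40% of all shared sites. Most of these differences were within counting error, since 16 of the 20 intervals held 1. The other 4, all at *Mycl*, lay above 1, against 31.6% over the genome, and none lay below 1 (0.0613% over the genome).

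The same ratios were set against the rest of the genome. The ratio over all 20 sites was 0.948 of the genome median, and medians on the 3 chromosomes concerned were 1.33 on chromosome 15 and 1.35 on chromosomes 12 and 4. A ratio of at least 1.5 was found at 5 sites, all at *Mycl*, or 25%, against 35.0% of all shared sites. None reached 2, a value passed by 9.43% of all shared sites. No interval lay above the genome median (5.55% over the genome) and 1 lay below it. Per gene the ratios were 1.26 at *Myc*, 1.12 at *Pvt1*, 1.27 at *Mycn* and 1.32 (1.18 to 1.48) at *Mycl*, and their intervals overlapped. Only that of *Mycl*, with 739 fragments in *Setdb1* KO against 560 in WT, lay above 1.

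**Figure D2:**
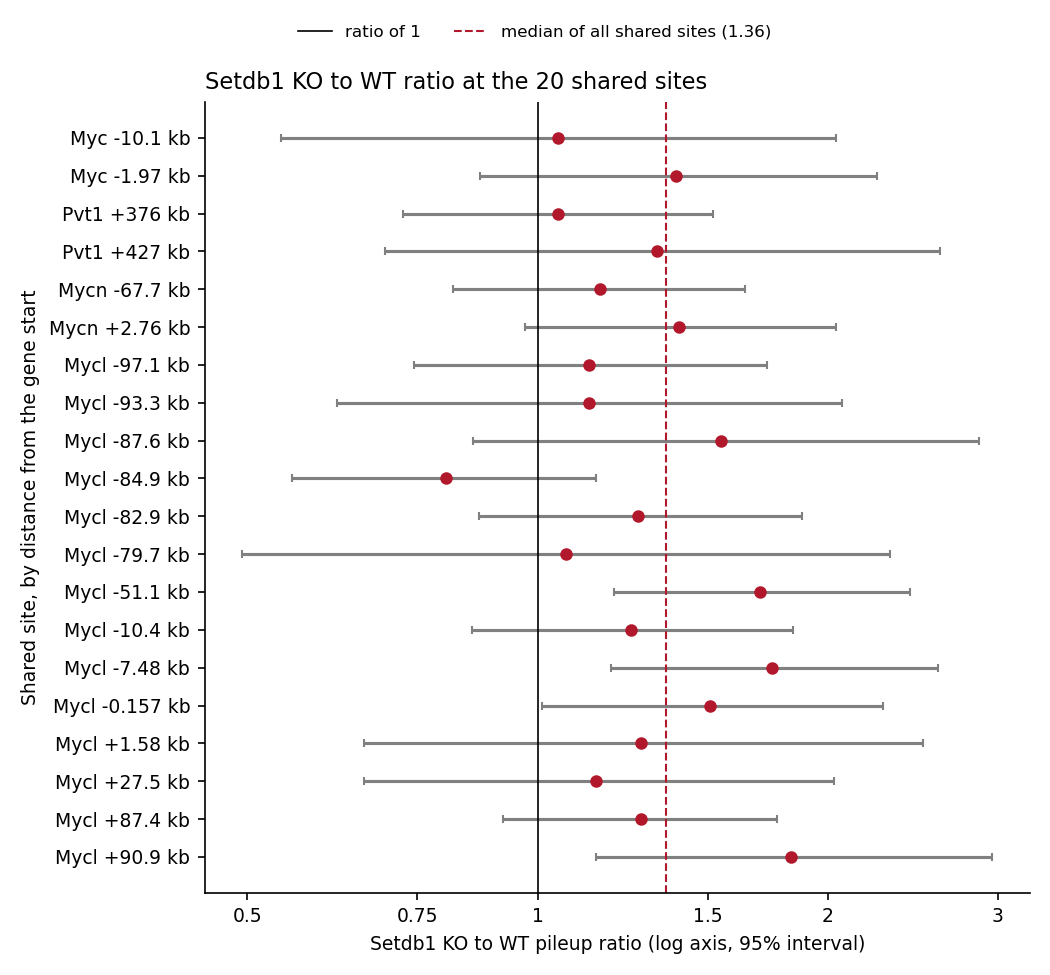
*Setdb1* KO to WT pileup ratio at the 20 shared sites on a log axis, with exact Clopper-Pearson 95% intervals, ordered by gene and by distance from the gene start. The solid line is a ratio of 1 and the dashed line the median of all shared sites, 1.36. The interval excludes 1 at 4 *Mycl* sites, and the site at −84.9 kb is the one below 1.

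Background moved with some of these values. It was higher in *Setdb1* KO than in WT at 14 of the 20 shared sites, with a median ratio of 1.21 and a range of 0.492 to 2.07, against a median of 1.05 over the genome. The share of all shared sites with a higher background in *Setdb1* KO was not computed. Fold enrichment was higher in *Setdb1* KO at 14 sites, equal at 1 and lower at 5, and over the genome it was higher at 77.0% of shared sites. The 5 were the site 35.8 kb past *Pvt1*, the *Mycl* promoter, *Mycl* −84.9 kb and −51.1 kb, and the shared site in *Trit1*. The part of the input in the ratios was not tested. In length, 17 of the 20 *Setdb1* KO peaks exceeded their WT partners, as did 81.2% over the genome.

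A peak that is missing from a list need not lack signal. The lowest pileup listed in WT, at a background under 3, was 9, and 5% of such WT peaks had 14 or fewer. The 6 KO-only pileups were 11 to 24 with a median of 17.5, and all 6 were under the median of the *Setdb1* KO list. The share of all KO-only peaks under that median was not computed, so that low pileup is not claimed as particular to these loci. Divided by the genome median ratio, the 6 pileups became 8.09 to 17.6, and 4 of the 6 stayed at or above 9. The other 2, in an intron of *Pvt1* and in an intron of *Trit1*, fell under 9. That limit is the lowest of 27949 such WT peaks, whose 1st percentile was 12. The peak at the *Mycn* promoter came to 11.8, above 9 but under 12. The share of all KO-only peaks that stay at or above 9 was not computed. WT pileups at the KO-only summits are not in the lists, so that no fold change can be given for them.

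CTCF motifs were found at 14 of the 26 sites, or 53.8% (35.5 to 71.2), close to the 55.1% of all *Setdb1* KO peaks. Among KO-only peaks the count was 1 of 6 (16.7%, 3.01 to 56.4, against 35.0% over the genome) and among shared sites 13 of 20 (65.0%, 43.3 to 81.9, against 63.3%). At the threshold of 6.15 none of the 4 *Pvt1* sites held one, while both *Myc* sites and 10 of the 16 *Mycl* sites did. High pileup without a motif above it occurred too, as at *Mycn* −67.7 kb, *Mycl* −7.48 kb and the shared site 35.8 kb past *Pvt1*. At the 95th percentile the threshold was −1.71. Of these sites *Mycl* −7.48 kb (2.86), the shared site past *Pvt1* (0.3) and the stronger KO-only *Pvt1* peak (0.14) passed it. *Mycn* −67.7 kb did not, but within 100 bp it scored 8.69, just under that window's main threshold of 8.72. In direction, 10 of the 14 motifs pointed along their gene and 4 against it, and the share at other genes was not computed. At *Mycl*, 7 of 10 were on the + strand, among them the promoter site and the sites at −51.1 kb and +90.9 kb. The others, at −87.6 kb, −10.4 kb and +87.4 kb, were on the - strand, so that both strands occurred on both sides of the gene.

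**Figure D3:**
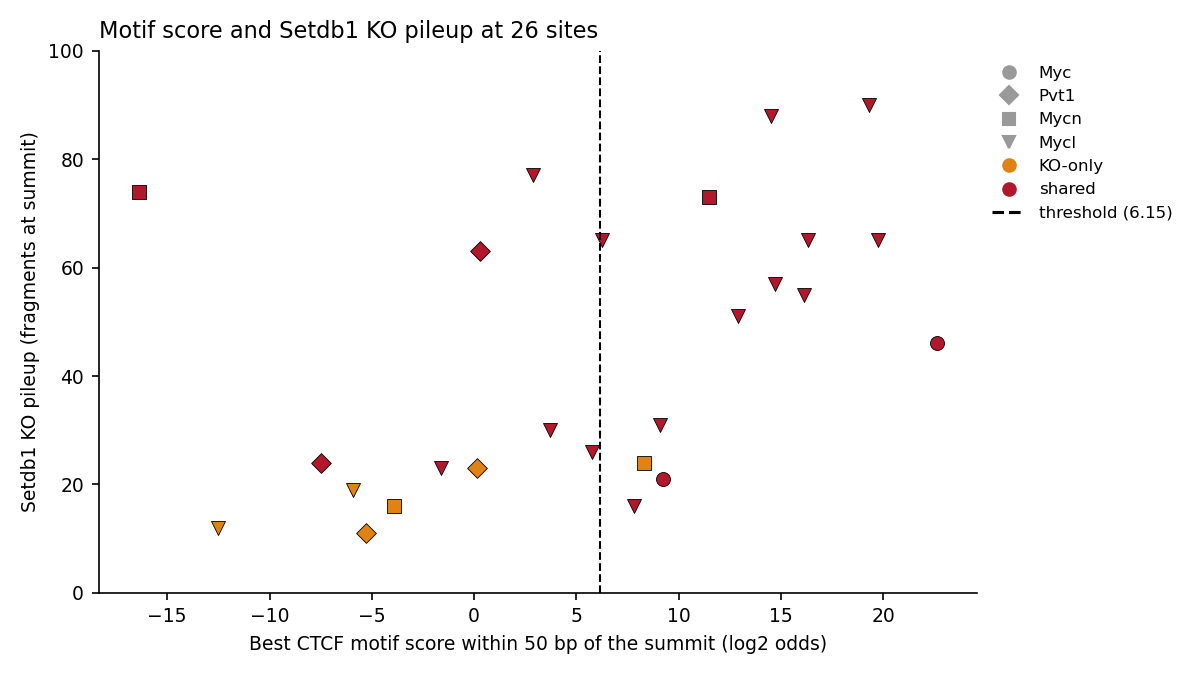
Best CTCF motif score within 50 bp of the summit (log2 odds) against *Setdb1* KO pileup (fragments over the summit) at the 26 sites. Marker shape gives the gene and colour the class (orange KO-only, red shared), and the dashed line is the threshold of 6.15. The 6 KO-only peaks all have pileups of 24 or less, and 1 of them is right of the line.

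CpG dinucleotides lay in the core at 5 of the 14 motifs (35.7%, 16.3 to 61.2), shared and KO-only sites together. Over the genome the shares were 39.1% of motif-bearing shared peaks and 28.5% of motif-bearing KO-only peaks. Counted from 1 at the first base of the core, the C of the CpG was at position 12 at the *Mycl* promoter, at *Mycl* −51.1 kb and at the KO-only site of *Mycn*. It was at positions 9 and 12 in the intron of *Mycn* and at position 2 at *Mycl* +87.4 kb. Neither *Myc* motif held a CpG in its core.

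Masked sequence made up more than 50% of the bases around the summit at 4 of the 6 KO-only peaks (66.7%) and at 5 of the 20 shared sites (25%). Over the genome these shares were 41.4% of KO-only and 24.7% of shared peaks. No interval was computed for the shares at the loci, and that of the KO-only peaks rests on only 6, so no difference from the genome is claimed. The reference marks repeats without naming them, so no repeat family is given. The 5 motifs followed by GATC were all at *Mycl*, 4 of them in the upstream group and 1 at +90.9 kb, and all 5 cores were in masked sequence. Of the other 9 motifs at the loci, 1 core was masked, that of the KO-only peak at *Mycn*.

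Over the genome GATC within 10 bp after the core was found, on the strand of the motif, at 38.5% of motif-bearing KO-only peaks and at 15.7% of motif-bearing shared peaks. Among KO-only peaks, 97.4% of the cores followed by it were masked, against 44.3% of the cores without it. Among shared peaks these were 88.6% with it and 22.0% without it. Among the 5 *Mycl* sites any pair of the 54 bp sequences was identical at 48.1% to 72.2% of positions (median 55.6%). For pairs among the other 9 sites this was 25.9% to 44.4% (median 37.0%), and for pairs of a site with GATC and a site without it 25.9% to 59.3% (median 38.9%). The closest pair was −87.6 kb and −84.9 kb, alike at 39 of 54 bases, and these neighbours had the ratios 1.55 and 0.803. The KO-only motif at *Mycn* lacked GATC, and its closest sequence was the *Mycl* site at −87.6 kb, with 32 of 54 bases identical. The letters and the grouping were picked after the sequences were seen, and the 54 bp include the core and the GATC letters. The higher identity within the group was therefore partly fixed by the choice, and it is given as a description only.

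Genes of the wider MYC network had CTCF peaks of both classes nearby. The list of the MYC-MAX-MLX network (10 genes) had 133 *Setdb1* KO peaks within 100 kb, of which 41 (30.8%) were KO-only, against 28.8% over the whole list. The counts were highest at *Mlxipl*, a glucose-responsive factor (9 of 27), and at *Mnt*, a repressor that pairs with MAX (6 of 13). Next were *Mlxip* (6 of 18) and *Max*, the partner of MYC (5 of 11). The median ratio at the 92 shared sites of this list was 1.30. Regulators and cofactors of the MYC protein (10 genes) had 38 KO-only peaks of 145 (26.2%) and a median ratio of 1.32. *Pim1*, a kinase, had 7 of 20, *Zbtb17*, which encodes the MYC partner MIZ1, 6 of 19, *Gsk3b*, a kinase that marks MYC for turnover, 5 of 13, and *Ruvbl2*, an ATPase, 5 of 29.

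Well known MYC target genes (15 genes) had 62 KO-only peaks of 192 (32.3%) and a median ratio of 1.33. *Cdk4*, a cell cycle kinase, had 9 of 23, *Ncl*, nucleolin, 8 of 26, *Cdkn1a*, a cell cycle inhibitor, 8 of 18, and *Ldha*, lactate dehydrogenase, 7 of 12. Pluripotency factors (14 genes), given for comparison, had 46 KO-only peaks of 185 (24.9%) and a median ratio of 1.35. *Pou5f1* had 8 of 30, *Sall4* 8 of 27, *Esrrb* 6 of 17 and *Lin28a* 6 of 19. For each of the 4 lists the Wilson interval of the KO-only share held the 28.8% of the whole list. A KO-only peak within 100 kb was common, being present at 83.8% of protein-coding genes.

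**Figure D4:**
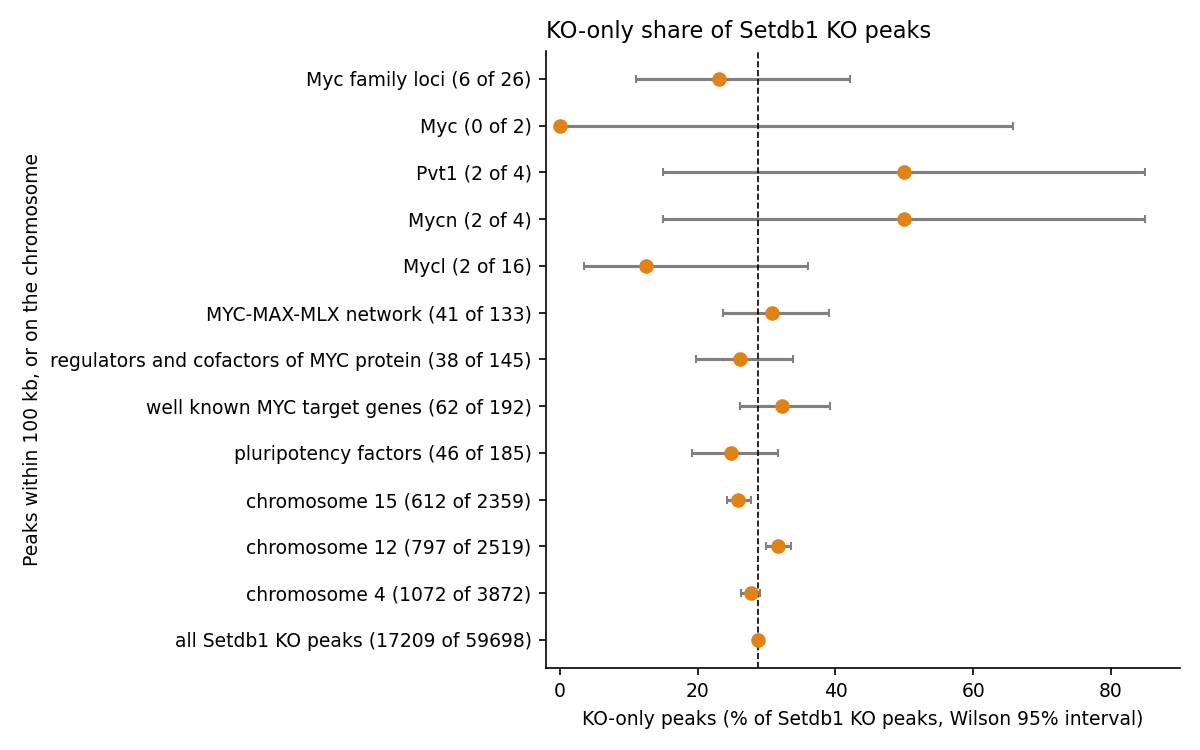
KO-only peaks as a percentage of *Setdb1* KO peaks at the *Myc* family loci, at each gene, at 4 gene lists (within 100 kb), on the 3 chromosomes and over the whole list, with Wilson 95% intervals and counts in brackets. The dashed line is the whole list, 28.8%. The intervals of the *Myc* family loci, of its genes and of the gene lists all cross it.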

How the data were processed

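CTCF ChIP-seq peak lists of *Setdb1* KO and WT ESCs, 1 library per condition, were used. The second CTCF libraries and all other assays were not analysed here. According to the labels and methods, the authors mapped reads to mm10 (GRCm38) by Bowtie 1.2, discarded duplicates by Picard, and ran MACS2 2.1.0 on each library (-g 2.43e+09, q of 0.05). The deposited fold enrichment is the authors' ratio of pileup to background after 1 is added to both. The authors deposited the p-value and the q-value as −log10 values, a score equal to −log10 q times 10, and the summit offset.

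Pileup and background of a peak were recovered from its fold enrichment and Poisson p (99.99% of *Setdb1* KO and 100.0% of WT peaks, within 0.001 on −log10 p). Shared peaks had an overlap of 1 bp or more and were paired by the largest overlap. Ratios have exact Clopper-Pearson and shares Wilson 95% intervals, which cover counting error only. Genes came from GENCODE vM21. Sequences and masked bases came from the RefSeq FASTA of GRCm38.p6. The CTCF matrix came from matches to a 14 bp seed, with 3 bp of flank, in the 1000 strongest shared *Setdb1* KO peaks, members left out. A site held a motif when its best score within 50 bp of the summit exceeded the 99th percentile of windows placed 1 kb to the left. Simulated data were used to check recovery, overlap and motif search.

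The rule for sites described singly took the promoter-proximal sites, all KO-only and WT-only peaks and, per gene, the 3 shared sites with the highest *Setdb1* KO pileup and those with the highest and lowest ratio. Up to 4 genes per list, those with the most KO-only peaks, were named. Neighbours of these sites and the GATC sites were added after their values were seen. The members and lists were chosen with earlier results of these data known. The tools were samtools 1.23.1 and Python 3.11.15 with pysam 0.24.0, numpy 2.4.6, scipy 1.17.1, pandas 2.3.3 and matplotlib 3.10.9.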

Additional observations from a re-analysis of the deposited data

How the results depend on the processing

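Dividing *Setdb1* KO pileups by the genome median ratio turned the ratio below 1, to 0.948 over all shared sites, 0.970 at *Mycl*, 0.932 at *Mycn*, 0.930 at *Myc* and 0.820 at *Pvt1*. Fold enrichment in place of pileup gave 1.13 over all shared sites, 1.11 at *Mycl*, 1.52 at *Mycn*, 1.07 at *Myc* and 0.766 at *Pvt1*. With lists of equal length, 2 of 21 *Setdb1* KO peaks were KO-only (9.52%, against 11.7% of all peaks), and 1 of 20 WT peaks was WT-only (against 10.9%). Inside the gene bodies alone, 2 of 4 *Setdb1* KO peaks were KO-only (50%, 15.0 to 85.0, against 29.0% of all *Setdb1* KO peaks in annotated gene bodies), and *Myc* and *Pvt1* had no shared site to compare. A reciprocal overlap of 50%, or summits within 100 bp, each gave 1 WT-only peak of 20 (against 11.1% and 5.80% of all WT peaks). With the 95th percentile of the control windows, 76.9% of member sites held a motif (57.9 to 89.0, against 72.5% of all *Setdb1* KO peaks). Within 2.5 kb of a start there were 5 promoter-proximal sites, again without a share over all peaks. Of 86 alternatives computed, 71 stayed within the interval of the value given or within 1.5 times the count. Among them were some values given above, 0.930 and 1.07 at *Myc*, 0.820 at *Pvt1* and 1.52 at *Mycn*. The RefSeq gene bodies and a rebuilt matrix, both chosen after seeing the data, were also among the 71. With RefSeq bodies *Pvt1* had no shared site. No paired analysis was possible because 1 library per condition has a peak list, and no replicate could be left out.

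Single sites rest on 11 to 90 fragments, so that at 16 of the 20 shared sites no difference from a ratio of 1 was detectable at this depth. Library and treatment cannot be told apart from genotype. Unlisted sites have no value.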
